A study of Mus musculus with 15 samples.

Results

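The genes that encode the enzymes of glycolysis and the pentose phosphate pathway, together with the sugar and lactate carriers and the glycogen entry enzymes that feed them, were followed in bone marrow-derived macrophages (BMDMs). The list was set by gene symbol and pathway role, not by a threshold on measured values, and held 36 of the 55385 genes of the count table. All 36 passed the low-count filter and were among the 13005 genes tested.

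BMDMs from BALB/c mice labelled as 6 weeks old were held for 2 h in serum-free DMEM, in 20 ng/mL recombinant mouse GM-CSF (rmGM-CSF) or in medium conditioned by serum-starved 4T1 mouse mammary tumor cells (4T1 CM). The mice were 2 STAT5fl/fl animals, whose Stat5 locus is flanked by loxP sites, and 3 STAT5cKO animals, which carry the same floxed alleles and Csf1r-iCre. Each mouse gave 1 library per treatment, or 15 libraries in 6 groups, and by the study's methods a further STAT5fl/fl replicate had been removed at quality control. Csf1r-iCre acts wherever Csf1r is active, so deletion was not limited to macrophages, and effects of the recombinase and of STAT5 loss cannot be told apart between these groups.

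Glycolysis splits glucose to pyruvate in the cytosol and yields ATP, and lactate dehydrogenase then turns pyruvate into lactate, which leaves the cell through monocarboxylate carriers. The pentose phosphate pathway branches off at glucose 6-phosphate, makes NADPH in its oxidative arm and ribose 5-phosphate in its non-oxidative arm. Activated macrophages are known for a fast rise in glucose uptake and lactate release, and uptake, hexokinase and phosphofructokinase are the steps at which the rate is usually set.

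Library totals ran from 16016736 to 22883108 counts, so that 3 counts, taken as the floor, stood for 0.131 to 0.187 CPM (counts scaled to library size). These limits cover counting error only. Stat5a was at 29 to 45.1 normalized CPM and Stat5b at 60.9 to 77.8 in every STAT5fl/fl library, against at most 0.142 and 0.189 in every STAT5cKO library. All 6 macrophage markers were expressed (summed CPM 6610 to 8220 per library), and the 4 T cell and 4 erythroid markers lay at or under the floor. The fibroblast list (4 genes, 2 past the filter) summed to 0.925 to 2.22 CPM in STAT5fl/fl and to 2.55 to 8.47 CPM in STAT5cKO libraries. The mast cell list summed to 6.25 to 23.6 and 1.18 to 7.49 CPM, all from Kit, while the other 2 of its 3 genes had no count in any library. The first list was higher in every STAT5cKO library and the second lower within each treatment, and their part in the genotype differences given here was not tested. The neutrophil list (7 genes, 1 past the filter) summed to at most 1.16 CPM with DMEM or rmGM-CSF and to 0.73 to 2.5 CPM with 4T1 CM, and its part in the 4T1 CM responses was not tested.

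Together the 36 genes took 0.507% to 0.538% of the counts in STAT5fl/fl libraries with DMEM, 0.524% to 0.529% with rmGM-CSF and 0.615% to 0.632% with 4T1 CM. In STAT5cKO libraries the shares were 0.549% to 0.598%, 0.579% to 0.591% and 0.627% to 0.705%. The share was thus highest with 4T1 CM in both genotypes, and by this share the genotypes overlapped with 4T1 CM alone. By summed normalized CPM they met with DMEM as well, at 5093 in STAT5fl/fl mouse 113 and in STAT5cKO mouse 114. Because these are bulk libraries, fewer cells of a type and less RNA per cell cannot be told apart. By length-scaled level (FPKM, fragments scaled to gene length and library size), Aldoa (group means of 227 to 329) and Pkm (214 to 325) were the most abundant members and Pfkfb1 (0.457 to 0.584) the least. Levels of some housekeeping members are uncertain, since 14 of the 36 genes share over 5% of the 50-base windows of their longest transcript with transcripts of other annotated genes. That share was 72.2% for Eno1, 68% for Pgk1, 41.5% for Pgam1, 34.4% for Pkm and 27.2% for Gapdh, whose level was only 4.87 to 7.46 FPKM. For 17 genes it was 0, among them Slc2a6, Slc16a3, Hk2, Pfkp and Pfkfb4.

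The 4 members with the largest called changes in any comparison were Pfkfb3, Slc2a6, Slc16a3 and Hk2, and the 250 bases before their transcription starts are shown. With 4T1 CM Slc2a6 fell, while Pfkfb3, Slc16a3 and Hk2 rose. The sequences are from RefSeq on GRCm38.p6 (35 of the 36 members matched) and run 5′ to 3′ on the gene's strand. They lie at chr2:11502091-11502340 (minus strand, the start of Pfkfb3 shared by 2 annotated transcripts), chr2:27027999-27028248 (minus), chr11:120948817-120949066 (plus) and chr6:82774455-82774704 (minus). Capitals mark matches, on either strand, to ACGTG or GCGTG, the cores of hypoxia response elements, to CACGTG, the E-box that MYC binds and which contains ACGTG, or to TTCNNNGAA, the STAT5 site.
Pfkfb3: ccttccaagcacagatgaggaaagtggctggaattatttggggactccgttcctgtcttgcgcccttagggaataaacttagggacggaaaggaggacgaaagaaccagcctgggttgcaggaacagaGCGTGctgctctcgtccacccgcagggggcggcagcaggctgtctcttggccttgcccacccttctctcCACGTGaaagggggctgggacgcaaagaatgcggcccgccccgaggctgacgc
Slc2a6: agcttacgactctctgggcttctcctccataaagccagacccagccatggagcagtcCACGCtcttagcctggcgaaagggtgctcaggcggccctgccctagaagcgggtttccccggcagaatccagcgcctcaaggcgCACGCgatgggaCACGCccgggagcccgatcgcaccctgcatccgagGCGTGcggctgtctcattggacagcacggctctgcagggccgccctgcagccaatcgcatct
Slc16a3: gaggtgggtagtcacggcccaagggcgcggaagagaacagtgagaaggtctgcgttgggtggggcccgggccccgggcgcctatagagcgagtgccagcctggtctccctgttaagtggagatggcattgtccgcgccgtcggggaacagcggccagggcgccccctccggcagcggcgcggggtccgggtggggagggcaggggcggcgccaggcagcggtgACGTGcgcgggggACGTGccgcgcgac
Hk2: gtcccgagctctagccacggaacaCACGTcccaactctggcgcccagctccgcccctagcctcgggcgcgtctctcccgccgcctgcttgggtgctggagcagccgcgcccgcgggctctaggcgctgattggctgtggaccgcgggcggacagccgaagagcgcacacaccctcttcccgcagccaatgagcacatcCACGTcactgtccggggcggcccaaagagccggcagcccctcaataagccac
The Pfkfb3 window held an E-box and 1 GCGTG match. The window of another Pfkfb3 start, at chr2:11553930-11554179 (minus), is not shown and had 1 ACGTG match and no other. Slc2a6 had 4 matches to GCGTG and none to ACGTG, whereas Slc16a3 and Hk2 each had 2 to ACGTG and none to GCGTG. No TTCNNNGAA match lay in these 4 windows, which says only that these letters are absent there. Over the 53 promoters listed for 35 members, ACGTG was found in 34%, GCGTG in 52.8%, CACGTG in 9.43% and TTCNNNGAA in 3.77%. Among all 32851 promoters of the table the shares were 16.6%, 28.2%, 6.02% and 7.02%. The windows were not matched for base composition, and a match is not a site of binding.

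In both genotypes 4T1 CM raised more of the genes than it lowered. Those raised in both included the lactate carriers Slc16a1 and Slc16a3, Hk1, Hk2, Pfkp, Pfkfb3 and Ldha, and those lowered in both were the glucose transporter Slc2a6 and the genes Pfkm, Pfkfb2 and Eno2. Against DMEM, 15 of the 36 genes were higher and 6 lower in STAT5fl/fl BMDMs, and 15 were higher and 4 lower in STAT5cKO BMDMs (edgeR's quasi-likelihood F test, Benjamini-Hochberg adjusted p under 0.01 over all genes tested). Among all genes tested, 19.2% were called higher and 18.2% lower in STAT5fl/fl, and 19.3% and 18.4% in STAT5cKO. The median log2 fold change of the 36 genes was 0.28 and 0.20, respectively, beside 0.02 and 0.01 for all genes. rmGM-CSF moved fewer of them. It raised 4 and lowered 3 in STAT5fl/fl (15.9% and 12.6% of all genes) and raised 5 and lowered 4 in STAT5cKO (13.3% and 10.2%), with medians of 0.03 and 0.02 beside -0.01 and 0.00 for all genes. The comparisons of both treatments share the DMEM libraries. Between 4T1 CM and rmGM-CSF, 11 genes were higher and 3 lower with 4T1 CM in STAT5fl/fl (13.8% and 16.7% of all genes), and 12 were higher and 2 lower in STAT5cKO (16.6% and 17.5%).

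**Figure D1:**
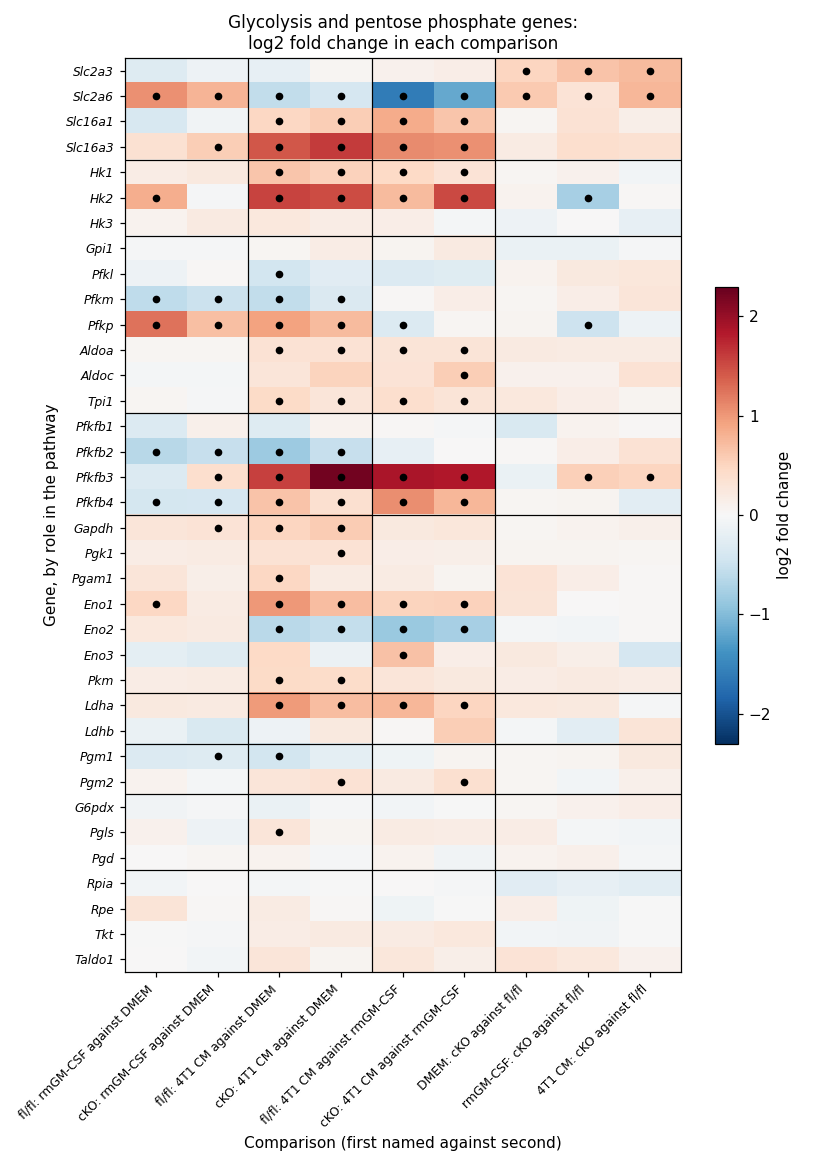
Log2 fold changes of the 36 genes (rows, grouped by role) in 9 comparisons (columns), where red is higher and blue lower in the group named first and a black point marks an adjusted p under 0.01. Most points lie in the 4T1 CM columns and above the pentose phosphate rows at the bottom, and the 3 genotype columns at the right hold 10 points, 6 of them for Slc2a3 and Slc2a6.

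Genotype called far fewer of the genes. With DMEM 2 were higher and 0 lower in STAT5cKO than in STAT5fl/fl BMDMs (0.938% and 1.55% of all genes). With rmGM-CSF 3 were higher and 2 lower (3.57% and 6.24%), and with 4T1 CM 3 were higher and 0 lower (4.13% and 3.57%). At an unadjusted p under 0.05 there were 10, 11 and 13 genes in either direction, and DESeq2 called 3, 5 and 3. The share of all genes at that unadjusted p was not computed, here or for such counts further on. The response to rmGM-CSF differed between the genotypes for 2 genes, Hk2 and Pfkp (3.11% of all genes in either direction). The step from rmGM-CSF to 4T1 CM did so for 1 gene, Hk2 (1.47%). Here the step means the difference between these parallel treatments, which were not given in sequence. For the response to 4T1 CM the number was 0 with edgeR's quasi-likelihood test (1.27% of all genes), with 6 genes at an unadjusted p under 0.05, and 1 gene, Pfkfb3, with DESeq2 or the likelihood ratio test.

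Among the carriers, the glucose transporters Slc2a3 and Slc2a6 separated the genotypes in every treatment. Slc2a3 encodes GLUT3, a high-affinity glucose transporter (ENSMUSG00000003153, chr6:122727809-122801640, minus strand). Its normalized CPM was 21 and 21.6 in the STAT5fl/fl libraries with DMEM, 16.1 and 18.8 with rmGM-CSF, and 18.4 and 18.8 with 4T1 CM. In STAT5cKO libraries it was 29.4, 30.1 and 30.2 with DMEM, 26.3, 27.1 and 29.3 with rmGM-CSF, and 28.1, 31.2 and 32.6 with 4T1 CM. All 9 STAT5cKO libraries, from 3 mice, thus lay above all 6 STAT5fl/fl libraries, from 2 mice. The genotype comparisons in the 3 treatments use the same mice and are not independent. The log2 difference was 0.49 ± 0.09 (SE) with DMEM (adjusted p = 0.00226), 0.66 ± 0.09 with rmGM-CSF (adjusted p = 5.62e-05) and 0.72 ± 0.09 for 4T1 CM (adjusted p = 2.71e-05). The first of these lost its call without mouse 112, 113, 115 or 116, with an adjusted p of up to 0.0543, and the others kept theirs under every alternative. No treatment comparison was called for Slc2a3, with log2 changes from -0.29 to 0.15.

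Slc2a6 encodes GLUT6, a hexose transporter of internal membranes (ENSMUSG00000036067, chr2:27021363-27027998, minus strand), and it was the one carrier that rose with rmGM-CSF and fell with 4T1 CM. In STAT5fl/fl libraries it was at 122 and 134 normalized CPM with DMEM, 261 and 271 with rmGM-CSF, and 80.8 and 93 with 4T1 CM. The STAT5cKO libraries gave 185, 192 and 206 with DMEM, 305, 340 and 355 with rmGM-CSF, and 143, 147 and 154 with 4T1 CM. Within each genotype the 3 treatments did not overlap, and within each treatment the STAT5cKO libraries were the higher. For a single pair of treatments, 70.4% to 74.2% of all genes did not overlap in STAT5fl/fl and 48.2% to 54.8% in STAT5cKO. These shares apply to the genes below as well. The log2 change with rmGM-CSF was 1.06 ± 0.09 in STAT5fl/fl (adjusted p = 2.34e-08) and 0.78 ± 0.07 in STAT5cKO (adjusted p = 1.02e-07). With 4T1 CM it was -0.56 ± 0.09 (adjusted p = 4.13e-05) and -0.39 ± 0.07 (adjusted p = 0.000131). Against STAT5fl/fl, STAT5cKO BMDMs were higher by 0.60 ± 0.08 in DMEM, 0.32 ± 0.08 in rmGM-CSF and 0.77 ± 0.08 in 4T1 CM (adjusted p = 0.000236, 0.00688 and 5.59e-06). The DMEM call was lost without mouse 112 (adjusted p = 0.0121) and the rmGM-CSF call without mouse 112, 113, 114 or 116 (adjusted p up to 0.0621). The drop from rmGM-CSF to 4T1 CM was 1.62 in size on the log2 scale in STAT5fl/fl and 1.17 in STAT5cKO, and the difference of 0.45 ± 0.11 did not pass (adjusted p = 0.035), although it did with the mouse as a block (adjusted p = 0.00378).

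Slc16a3 encodes MCT4, the monocarboxylate carrier that exports lactate (ENSMUSG00000025161, chr11:120948480-120960868, plus strand). Normalized CPM in STAT5fl/fl libraries was 25 and 26.3 with DMEM, 31.8 and 33.7 with rmGM-CSF, and 68.6 and 70.1 with 4T1 CM. In the 3 STAT5cKO mice it was 24.2, 30.8 and 31.9, then 42.3, 42.4 and 43.6, and 75.7, 87 and 104 in the same order. The 4T1 CM libraries stood above all others in both genotypes. The log2 change with 4T1 CM was 1.44 ± 0.13 in STAT5fl/fl (adjusted p = 7.34e-08) and 1.62 ± 0.10 in STAT5cKO (adjusted p = 7.56e-10), and the difference between them, 0.18 ± 0.17, did not pass (adjusted p = 0.698). rmGM-CSF raised it in STAT5cKO by 0.56 ± 0.11 (adjusted p = 0.000605), while the 0.35 ± 0.14 of STAT5fl/fl did not pass (adjusted p = 0.0491). Slc16a1, which encodes the related carrier MCT1, was higher with 4T1 CM by 0.48 ± 0.14 in STAT5fl/fl (adjusted p = 0.00768) and 0.57 ± 0.11 in STAT5cKO (adjusted p = 0.000338). The first of these calls was lost with only the groups compared or without mouse 112, 113, 115 or 116 (adjusted p up to 0.224).

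Hexokinase commits glucose to the cell by phosphorylation, and its inducible form Hk2 (ENSMUSG00000000628, chr6:82725025-82774454, minus strand) was the one gene of the 36 called for a difference both in the rmGM-CSF response and in the step from rmGM-CSF to 4T1 CM. In STAT5fl/fl libraries Hk2 was at 54 and 54 normalized CPM with DMEM, 89.5 and 102 with rmGM-CSF, and 144 and 172 with 4T1 CM. In STAT5cKO libraries it was 52.2, 56.6 and 62.4 with DMEM, 53.4, 55.6 and 60 with rmGM-CSF, and 145, 164 and 174 with 4T1 CM. With rmGM-CSF the STAT5cKO libraries therefore stayed within the range of DMEM while both STAT5fl/fl libraries lay above it, and with 4T1 CM the genotypes overlapped. The log2 change with rmGM-CSF was 0.83 ± 0.11 in STAT5fl/fl (adjusted p = 8.41e-06) and -0.02 ± 0.09 in STAT5cKO (adjusted p = 0.879), a difference of -0.85 ± 0.14 (adjusted p = 0.000891). With 4T1 CM the changes were 1.55 ± 0.11 and 1.496 ± 0.09 (adjusted p = 2.05e-09 and 1.54e-10), and their difference of -0.05 ± 0.14 did not pass (adjusted p = 0.917). From rmGM-CSF to 4T1 CM, Hk2 rose by 0.72 ± 0.10 in STAT5fl/fl and 1.52 ± 0.09 in STAT5cKO, a difference of 0.80 ± 0.14 (adjusted p = 0.00196). Within rmGM-CSF the STAT5cKO level was lower, with a log2 difference of -0.77 ± 0.10 (adjusted p = 2.06e-05), a call kept under every alternative. The difference in the rmGM-CSF response lost its call without mouse 112 and ran over -0.942 to -0.753 in the alternatives. That in the step from rmGM-CSF to 4T1 CM lost its call without mouse 112, 113, 114 or 116 and ran over 0.704 to 0.854.

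The other hexokinases moved less. Hk1, the housekeeping form, rose with 4T1 CM by 0.64 ± 0.09 in STAT5fl/fl (adjusted p = 1.82e-05) and 0.54 ± 0.08 in STAT5cKO (adjusted p = 1.15e-05). Hk3, the form typical of myeloid cells, was called in none of the 12 comparisons, with log2 changes of 0.08 to 0.24 in the 4 comparisons with DMEM. Per length, Hk3 made up most of the hexokinase transcript, with mean shares of 79.2% ± 1.48 (SD, n = 2) in STAT5fl/fl and 77.2% ± 0.65 (n = 3) in STAT5cKO with DMEM. The share of Hk2 was 8.28% ± 0.53 and 9.21% ± 0.67 with DMEM, 13% ± 0.05 and 7.95% ± 0.24 with rmGM-CSF, and 17.6% ± 0.69 and 19.6% ± 0.77 with 4T1 CM.

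**Figure D2:**
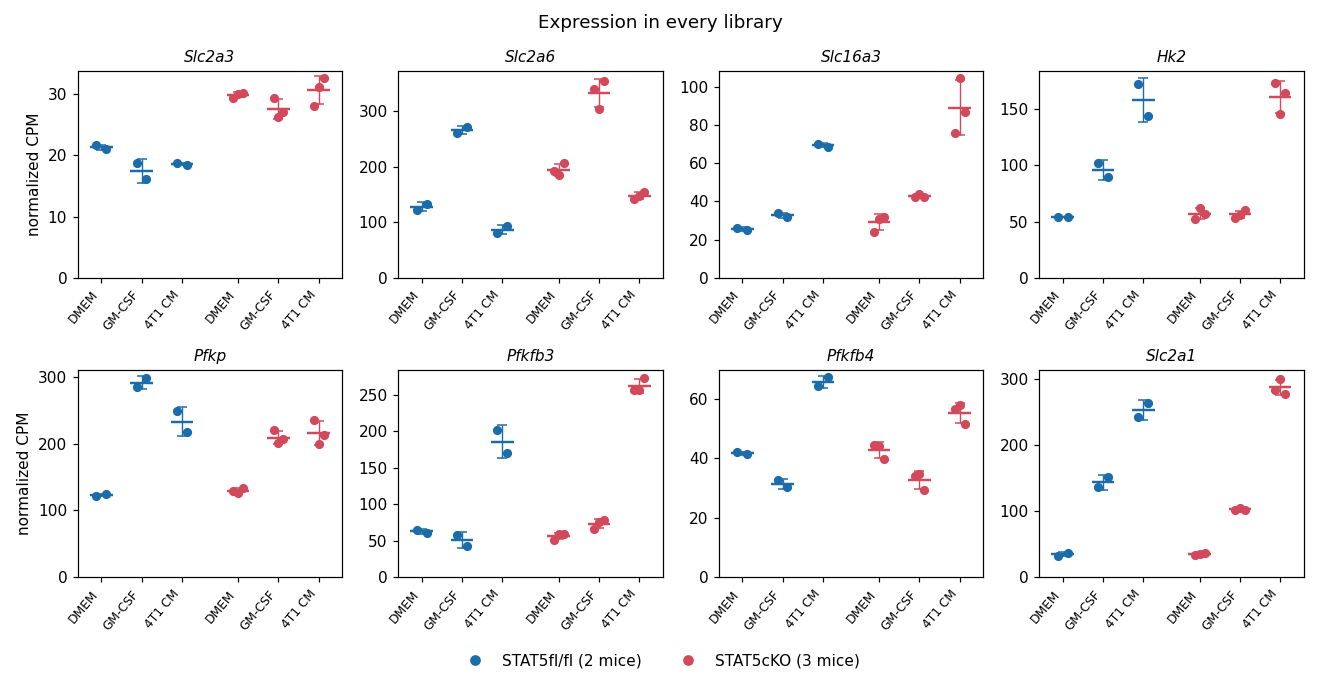
Normalized CPM (y axis, linear, from 0) of the 7 members named with values in every library and of Slc2a1, by treatment, in STAT5fl/fl (blue, 2 mice) and STAT5cKO (red, 3 mice) BMDMs. Points are libraries, and bars are the mean and SD of the group. Hk2 and Pfkp show the 2 rmGM-CSF groups apart and the DMEM and 4T1 CM groups close together.

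Phosphofructokinase carries out the committed step of glycolysis, and its platelet-type subunit Pfkp (ENSMUSG00000021196, chr13:6579768-6648777, minus strand) rose with both treatments. In STAT5fl/fl libraries Pfkp was at 122 and 125 normalized CPM with DMEM, 285 and 299 with rmGM-CSF, and 218 and 249 with 4T1 CM. The STAT5cKO libraries gave 127, 129 and 133 with DMEM, 201, 208 and 220 with rmGM-CSF, and 200, 213 and 235 with 4T1 CM. Every stimulated library lay above every DMEM library, and with rmGM-CSF alone the stimulated groups of the 2 genotypes did not overlap. The log2 change with rmGM-CSF was 1.24 ± 0.08 in STAT5fl/fl (adjusted p = 1.44e-09) and 0.69 ± 0.07 in STAT5cKO (adjusted p = 2.7e-07), a difference of -0.55 ± 0.10 (adjusted p = 0.00277). With 4T1 CM it was 0.92 ± 0.08 and 0.74 ± 0.07 (adjusted p = 4.74e-08 and 5.18e-08), and the difference of -0.18 ± 0.10 did not pass (adjusted p = 0.454). Within rmGM-CSF, STAT5cKO BMDMs were lower, with a log2 difference of -0.48 ± 0.07 (adjusted p = 0.000126), kept under every alternative, whereas the difference in response lost its call without mouse 112, 113, 115 or 116 (adjusted p up to 0.0518). The muscle-type subunit Pfkm fell, with log2 changes of -0.58 ± 0.11 in STAT5fl/fl and -0.49 ± 0.08 in STAT5cKO for rmGM-CSF, and for 4T1 CM of -0.56 ± 0.10 and -0.34 ± 0.08 (adjusted p = 0.00027, 0.000205, 0.000219 and 0.00218). The liver-type subunit Pfkl was lower with 4T1 CM in STAT5fl/fl (-0.42 ± 0.12, adjusted p = 0.00861) and was not called in STAT5cKO (-0.26 ± 0.10, adjusted p = 0.0377). Leaving out mouse 112 ended both Pfkm calls in STAT5fl/fl (adjusted p up to 0.0388), mouse 114 or 116 ended the Pfkm call with 4T1 CM in STAT5cKO (up to 0.028), and mouse 112, 113 or 116 ended the Pfkl call (up to 0.108). By FPKM, the mean share of Pfkp among the 3 subunits went from 46% to 71.9% in STAT5fl/fl and from 46.1% to 61.5% in STAT5cKO between DMEM and rmGM-CSF.

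The bifunctional enzymes make and degrade fructose 2,6-bisphosphate, the activator of phosphofructokinase, and Pfkfb3, the form with the strongest kinase activity, changed most of the 36 genes with 4T1 CM (ENSMUSG00000026773, chr2:11471433-11554077, minus strand). Its normalized CPM in STAT5fl/fl libraries was 60 and 65.1 with DMEM, 42.7 and 58.3 with rmGM-CSF, and 170 and 202 with 4T1 CM. In the 3 STAT5cKO mice it was 51.2, 58.4 and 58.5 with DMEM, 66.3, 76 and 77.8 with rmGM-CSF, and 256, 258 and 273 with 4T1 CM. The STAT5cKO libraries were above the STAT5fl/fl libraries with rmGM-CSF and with 4T1 CM, and below them with DMEM, where the difference was not called. Between the genotypes, 39.3% to 49% of all genes did not overlap within a treatment. With 4T1 CM the log2 change was 1.57 ± 0.12 in STAT5fl/fl (adjusted p = 7.44e-09) and 2.23 ± 0.10 in STAT5cKO (adjusted p = 4.61e-12). With rmGM-CSF it was -0.31 ± 0.12 in STAT5fl/fl (adjusted p = 0.0547) and 0.39 ± 0.10 in STAT5cKO (adjusted p = 0.0058), the latter lost without mouse 114, 115 or 116 (adjusted p up to 0.0422). The differences between the genotypes in these responses, 0.65 ± 0.15 and 0.70 ± 0.16, did not pass (adjusted p = 0.0235 and 0.0125). With the mouse as a block both did, at 0.66 and 0.71 (adjusted p = 0.000566 and 0.000199), as did the fall with rmGM-CSF in STAT5fl/fl (-0.32, adjusted p = 0.00378). Within a treatment, STAT5cKO BMDMs were higher by 0.54 ± 0.12 with rmGM-CSF and 0.50 ± 0.11 with 4T1 CM (adjusted p = 0.003 and 0.0038). Both calls were lost without mouse 113, 115 or 116, with an adjusted p of up to 0.084 and 0.0449, and the second also when the libraries with 4T1 CM were fitted alone.

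Pfkfb4, another member of the family (ENSMUSG00000025648, chr9:108991778-109032228, plus strand), went down with rmGM-CSF and up with 4T1 CM. In STAT5fl/fl libraries it was at 41.4 and 42.1 normalized CPM with DMEM, 30.2 and 32.7 with rmGM-CSF, and 64.4 and 67.3 with 4T1 CM. In STAT5cKO libraries it was 39.8, 44.1 and 44.7, then 29.2, 34 and 34.7, and 51.6, 56.6 and 58. The 3 treatments did not overlap within either genotype. For a single pair of treatments this held for 70.4% to 74.2% of all genes in STAT5fl/fl and 48.2% to 54.8% in STAT5cKO. The log2 change was -0.41 ± 0.09 and -0.39 ± 0.08 with rmGM-CSF, and 0.66 ± 0.09 and 0.37 ± 0.07 with 4T1 CM, in STAT5fl/fl and STAT5cKO (adjusted p = 0.00195, 0.000661, 8.57e-06 and 0.000364). The fall in STAT5fl/fl was not called without mouse 112 or 113, with an adjusted p of up to 0.078. Pfkfb2, the form of heart and kidney, fell in all 4 comparisons with DMEM (log2 changes of -0.53 to -0.83), although 26.1% of its windows are shared with 1 other annotated gene. Of these 4 calls, those with rmGM-CSF were lost in STAT5fl/fl without mouse 112 or 113 (adjusted p up to 0.0815) and in STAT5cKO without mouse 114, 115 or 116 (up to 0.0474), and that with 4T1 CM in STAT5cKO without mouse 114 or 115 (up to 0.0749). Pfkfb1, the liver form, stayed uncalled at 28 to 54 counts per library.

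**Figure D3:**
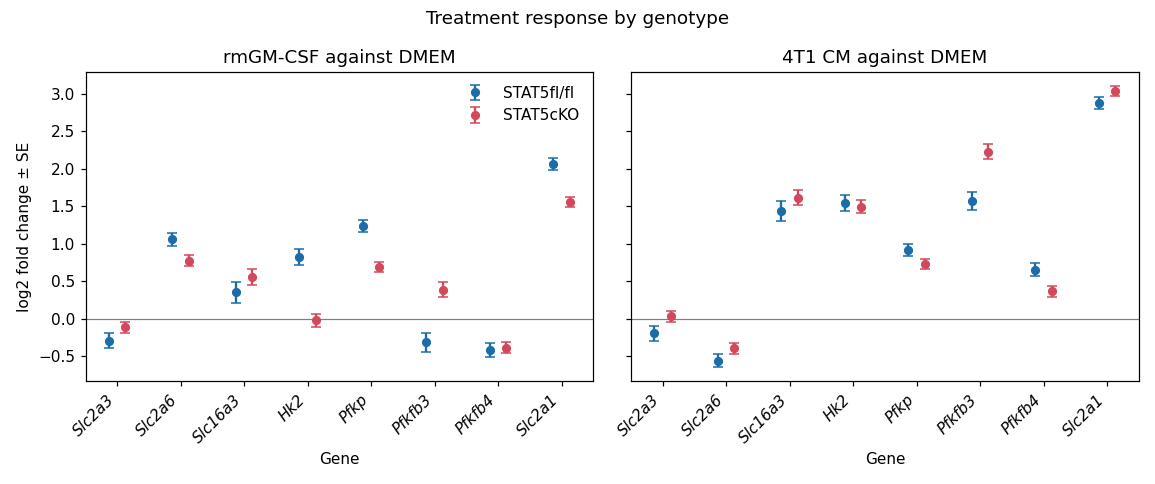
Log2 fold change ± SE (y axis) against DMEM with rmGM-CSF (left) and with 4T1 CM (right) for the 7 named members and Slc2a1, in STAT5fl/fl (blue) and STAT5cKO (red) BMDMs. With rmGM-CSF the Hk2 values are 0.83 and -0.02, and with 4T1 CM they are 1.55 and 1.496.

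Among the remaining glycolytic enzymes, those that rose with 4T1 CM did so by less than 1 on the log2 scale. Ldha, the lactate dehydrogenase subunit that favours lactate, had 244 and 257 normalized CPM with DMEM and 487 and 499 with 4T1 CM in STAT5fl/fl libraries. In STAT5cKO libraries it ranged from 261 to 317 and from 453 to 532. It rose by 0.98 ± 0.09 and 0.71 ± 0.07 (adjusted p = 9.13e-08 and 3.29e-07), and neither rmGM-CSF comparison was called. Eno1, the ubiquitous enolase, rose by 0.99 ± 0.13 and 0.72 ± 0.11 with 4T1 CM (adjusted p = 6.21e-06 and 1.93e-05), and by 0.48 ± 0.13 with rmGM-CSF in STAT5fl/fl (adjusted p = 0.00689), a call lost without mouse 112 or 113 (adjusted p up to 0.0998). Eno2, the neuronal enolase, fell with 4T1 CM instead, with log2 changes of -0.63 ± 0.13 and -0.55 ± 0.10 (adjusted p = 0.000528 and 0.000232). The mean share of Eno1 in enolase FPKM was 41.1% ± 3.21 (SD, n = 2) with DMEM and 66.3% ± 0.74 with 4T1 CM in STAT5fl/fl, and 46.7% ± 6.11 (n = 3) and 66.8% ± 6.3 in STAT5cKO. The mean share of Eno2 was 54.4% and 48.4% with DMEM, above that of Eno1 in STAT5fl/fl and overlapping it in STAT5cKO libraries. With 4T1 CM it was 28.7% and 29.3%. Of the Eno1 windows, 72.2% are shared with other annotated genes, against 0.0364% of the Eno2 windows. Counting drops most reads that fit several places, so the Eno1 shares may be too low. The order of Eno1 and Eno2 with DMEM is therefore uncertain.

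Further genes of the trunk were called higher with 4T1 CM in 1 or both genotypes. Aldoa (aldolase) rose by 0.34 in each genotype, Tpi1 (triosephosphate isomerase) by 0.44 and 0.27, Gapdh by 0.50 and 0.58, and Pkm (pyruvate kinase) by 0.43 in each. Pgam1 (phosphoglycerate mutase) rose in STAT5fl/fl (0.47 ± 0.10, adjusted p = 0.000837), with 0.19 ± 0.08 in STAT5cKO (adjusted p = 0.0653), and Pgk1 (phosphoglycerate kinase) rose in STAT5cKO (0.33 ± 0.10, adjusted p = 0.00875), with 0.34 ± 0.12 in STAT5fl/fl (adjusted p = 0.0237). Neither gene was called for a difference in response. In STAT5fl/fl the 4T1 CM calls of Eno2, Aldoa, Tpi1 and Gapdh were lost without mouse 112 or 113 (adjusted p up to 0.0442, 0.109, 0.0165 and 0.0292), and those of Pgam1 and Pkm without mouse 112 (0.0695 and 0.114). In STAT5cKO both that of Tpi1 and that of Pgk1 were lost with only the groups compared, that of Tpi1 also without mouse 114 or 115 (up to 0.0315) and that of Pgk1 without mouse 112, 113, 114 or 115 (up to 0.0462). rmGM-CSF raised Gapdh in STAT5cKO by 0.32 ± 0.08 (adjusted p = 0.00649), a call lost when any 1 mouse was left out (adjusted p up to 0.0635), with 0.27 ± 0.10 in STAT5fl/fl (adjusted p = 0.0464). Gpi1, the glucose phosphate isomerase, and Ldhb, the second lactate dehydrogenase subunit, were not called in any comparison. Aldoc and Eno3, minor isozymes, were each called once, higher with 4T1 CM than with rmGM-CSF, in STAT5cKO (0.56 ± 0.16) and in STAT5fl/fl (0.68 ± 0.19), and the Eno3 call was lost under 9 of 13 alternatives, namely with the mouse as a block (adjusted p = 0.0109), no low-count filter, DESeq2, only the groups compared, or any 1 mouse left out (up to 0.285). The Aldoc call was lost with only the groups compared or without mouse 112, 113, 114 or 115 (adjusted p up to 0.0419).

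**Figure D4:**
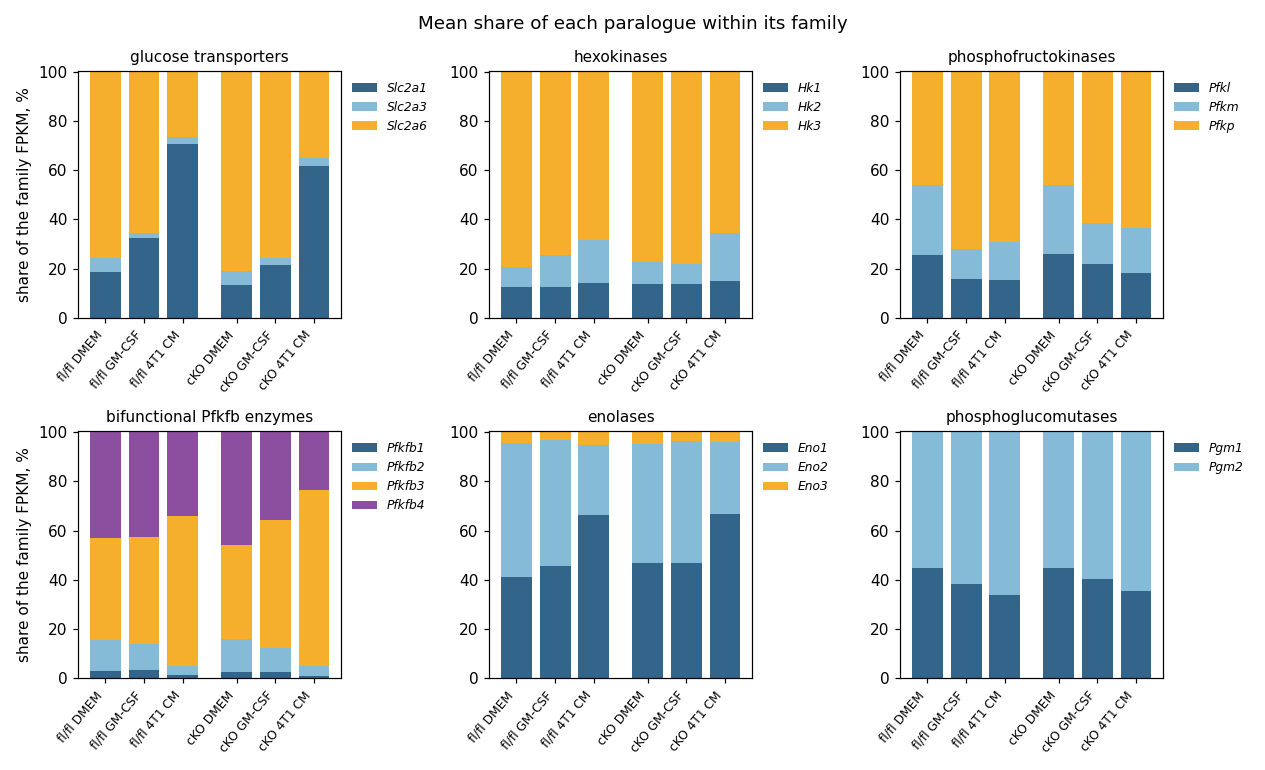
Mean share (y axis, percent of the summed FPKM of the family) of each paralogue in the 6 groups (2 STAT5fl/fl or 3 STAT5cKO libraries each), for 6 families. With 4T1 CM the bars pass from Slc2a6 to Slc2a1 and from Eno2 to Eno1, and the bar of Pfkfb3 reaches 61.4% in STAT5fl/fl and 71.8% in STAT5cKO. The order of Eno1 and Eno2 with DMEM rests on the gene length used. It is also uncertain because 72.2% of the Eno1 windows are shared with other genes, against 0.0364% for Eno2.

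Phosphoglucomutase joins glycolysis to glycogen. Pgm1 and Pgm2, listed here under glycogen entry, differed in the sign of their change with 4T1 CM. With rmGM-CSF in STAT5cKO both changes were negative. Pgm1 was lower with 4T1 CM in STAT5fl/fl (-0.42 ± 0.10, adjusted p = 0.00153) and with rmGM-CSF in STAT5cKO (-0.30 ± 0.08, adjusted p = 0.00596), and its log2 changes in the remaining comparisons with DMEM were -0.32 and -0.23. Pgm2 was higher with 4T1 CM in STAT5cKO (0.33 ± 0.09, adjusted p = 0.00389), with 0.27 ± 0.11 in STAT5fl/fl (adjusted p = 0.0429). Of these calls, the one of Pgm1 in STAT5fl/fl was lost without mouse 113 (adjusted p = 0.0851), that in STAT5cKO with no low-count filter or without mouse 114, 115 or 116 (up to 0.0623), and that of Pgm2 without mouse 114, 115 or 116 (up to 0.0724).

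The pentose phosphate genes gave 1 call among them. Of the 3 oxidative genes, G6pdx, whose product glucose 6-phosphate dehydrogenase opens the pathway, had log2 changes of -0.14 to -0.03 against DMEM, and Pgd, the 6-phosphogluconate dehydrogenase, of -0.03 to 0.09. Pgls, the 6-phosphogluconolactonase, rose with 4T1 CM in STAT5fl/fl (0.28 ± 0.07, adjusted p = 0.00286), a call lost with no low-count filter, with only the groups compared or without mouse 112 or 113 (adjusted p up to 0.0615). No gene of the non-oxidative arm was called in any of the 12 comparisons by edgeR's quasi-likelihood test. These 4 are Rpia and Rpe, which interconvert the pentose phosphates, transketolase (Tkt) and transaldolase (Taldo1), and their log2 changes against DMEM were between -0.07 and 0.29. At an unadjusted p under 0.05 there were at most 2 of them in a comparison, and DESeq2 and the likelihood ratio test each called 1, Taldo1, with 4T1 CM in STAT5fl/fl and between the genotypes with DMEM. G6pdx was expressed at 61.1 to 69.2 FPKM in the 6 groups and Taldo1 at 90.2 to 118, so these genes were far above the floor. Taldo1 came nearest to a genotype difference, at 0.32 ± 0.08 with DMEM (adjusted p = 0.0223).

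Slc2a1, which encodes GLUT1, the main glucose transporter of activated macrophages, is not among the 36 genes but belongs to a list of 60 neighbouring genes of sugar metabolism, 44 of them tested (ENSMUSG00000028645, chr4:119108711-119137983, plus strand). In STAT5fl/fl libraries it was at 32.3 and 36.3 normalized CPM with DMEM, 135 and 152 with rmGM-CSF, and 242 and 263 with 4T1 CM. The STAT5cKO libraries gave 33.4, 35.1 and 36.1 with DMEM, 100.6, 102 and 105 with rmGM-CSF, and 277, 283 and 300 with 4T1 CM. The genotypes overlapped with DMEM, and with rmGM-CSF the STAT5cKO libraries were the lower. With 4T1 CM the STAT5cKO libraries were the higher, a difference that was not called. Slc2a1 rose with rmGM-CSF by 2.06 ± 0.08 in STAT5fl/fl and 1.55 ± 0.07 in STAT5cKO (adjusted p = 1.69e-12 and 5.77e-12), a difference of -0.51 ± 0.10 (adjusted p = 0.00467) that lost its call when any 1 mouse was left out (adjusted p up to 0.038). With 4T1 CM it rose by 2.88 ± 0.08 and 3.04 ± 0.07 (adjusted p = 3.59e-14 and 7.57e-16), a difference of 0.16 ± 0.10 (adjusted p = 0.509). The step from rmGM-CSF to 4T1 CM differed by 0.67 ± 0.10 (adjusted p = 0.000366), kept under every alternative. Among the 3 glucose transporters, the mean share of Slc2a1 by FPKM was 18.6%, 32.4% and 70.9% in STAT5fl/fl with DMEM, rmGM-CSF and 4T1 CM, and 13.3%, 21.4% and 61.9% in STAT5cKO.

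Of the 44 neighbouring genes tested, rmGM-CSF raised 5 and lowered 12 in STAT5fl/fl (15.9% and 12.6% of all genes). In STAT5cKO it raised 2 and lowered 9 (13.3% and 10.2%). With 4T1 CM 8 were raised and 8 lowered in STAT5fl/fl (19.2% and 18.2%), and 8 raised and 10 lowered in STAT5cKO (19.3% and 18.4%). Genotype called 0 of them in DMEM, 3 in rmGM-CSF and 0 in 4T1 CM by edgeR's quasi-likelihood test. At an unadjusted p under 0.05 there were 7, 14 and 11. Of all genes, 0.938%, 3.57% and 4.13% were called higher and 1.55%, 6.24% and 3.57% lower in STAT5cKO. With DESeq2 the numbers were 1, 3 and 1. Around pyruvate dehydrogenase, which passes pyruvate to the mitochondrion, its kinase gene Pdk2 and its phosphatase gene Pdp1 both fell. With 4T1 CM the log2 change of Pdp1 was -1.58 ± 0.10 in STAT5fl/fl and -1.01 ± 0.08 in STAT5cKO, and that of Pdk2 -1.20 ± 0.16 and -0.56 ± 0.12. The difference between the genotypes in the Pdp1 response was called by DESeq2 and the likelihood ratio test, but not by edgeR's quasi-likelihood test. Pck2, the mitochondrial enzyme that makes phosphoenolpyruvate, fell as well (-1.23 ± 0.11 and -1.11 ± 0.09), and so did Gyg, glycogenin, the primer of glycogen (-1.14 ± 0.13 and -0.80 ± 0.11). H6pd, the glucose 6-phosphate dehydrogenase of the endoplasmic reticulum, rose with 4T1 CM by 0.60 ± 0.13 and 0.70 ± 0.11 and fell with rmGM-CSF in STAT5fl/fl (-0.74 ± 0.14). Shpk, which phosphorylates the sugar sedoheptulose, fell with rmGM-CSF in both genotypes (-1.23 ± 0.23 and -1.27 ± 0.18). The rmGM-CSF values of H6pd and Shpk in STAT5fl/fl lost their calls without mouse 113 (adjusted p = 0.0356 and 0.0557), as did the rise of H6pd with 4T1 CM in STAT5fl/fl without mouse 112 or 113 (up to 0.0362) and the fall of Pdk2 in STAT5cKO without mouse 116 (0.0145).

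Genes of known regulators of glucose metabolism moved with the treatments as well, 9 of a list of 10 being tested. Myc, a transcription factor of growth and glycolysis, rose with rmGM-CSF by 2.98 ± 0.11 in STAT5fl/fl and 2.61 ± 0.09 in STAT5cKO and with 4T1 CM by 3.76 ± 0.11 and 3.80 ± 0.09. Hif1a, the oxygen-regulated subunit of HIF-1, rose with 4T1 CM by 1.599 ± 0.12 and 1.83 ± 0.10. Hif1a was also called higher with rmGM-CSF in both genotypes. Over the alternatives its log2 change was 0.43 to 0.49 in STAT5fl/fl and 0.34 to 0.46 in STAT5cKO. These calls were lost without mouse 112 or 113 in STAT5fl/fl, and without mouse 112, 113, 115 or 116 in STAT5cKO. Nfe2l2, which encodes NRF2, rose with rmGM-CSF by 1.25 ± 0.08 and 1.16 ± 0.07 and was lower with 4T1 CM than with rmGM-CSF (-1.52 ± 0.08 and -1.08 ± 0.07). Of the arrestin-related genes Txnip and Arrdc4, whose products restrain glucose uptake, Txnip fell with rmGM-CSF (-1.07 ± 0.10 and -0.96 ± 0.08), and Arrdc4 rose with 4T1 CM by 1.20 ± 0.13 and 1.25 ± 0.10. Among these 9 genes the 1 genotype call was Myc with rmGM-CSF, lower in STAT5cKO with a log2 difference of -0.38 ± 0.09 (adjusted p = 0.00502), and it was lost without mouse 112, 113 or 115 (adjusted p up to 0.128). Of 15 tested HIF target genes outside glycolysis, 6 were higher and 3 lower with 4T1 CM in STAT5fl/fl (19.2% and 18.2% of all genes). In STAT5cKO 8 were higher and 4 lower (19.3% and 18.4%). With rmGM-CSF 3 were higher and 4 lower in STAT5fl/fl (15.9% and 12.6%), and 1 was higher and 5 lower in STAT5cKO (13.3% and 10.2%). Between the genotypes, 1 was higher and 0 lower in STAT5cKO with DMEM (0.938% and 1.55%). With rmGM-CSF 1 was higher and 2 lower (3.57% and 6.24%), and with 4T1 CM 5 were higher and 1 lower (4.13% and 3.57%). At an unadjusted p under 0.05 there were 6, 5 and 9. The called genes of these lists were read as counts beside the shares of all genes given above, which hold for the adjusted p alone. No test of a list was made.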

How the data were processed

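Raw fragment counts per gene were used. The authors made these deposited counts by trimming reads with Trimmomatic 0.33 (versions from the submitters' processing notes), aligning them with HISAT2 2.1.0 to GRCm38 and counting with featureCounts 1.6.2 against Ensembl genes, for stranded read pairs with both ends mapped. That counting drops most reads that fit several places, which lowers genes with near-identical copies. The share of sequence held in common with other genes was computed from 50-base windows of GENCODE M21 transcripts.

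The analysis ran in R 4.3.3 (edgeR 4.0.16): CPM over 1 in at least 2 libraries (13005 genes), relative log expression normalization (factors 0.945 to 1.08), a 6-group model on all 15 libraries, quasi-likelihood F tests, Benjamini-Hochberg adjustment over all genes tested and a threshold of 0.01. The biological coefficient of variation was 0.0787. SE is the log2 fold change divided by the square root of F. Normalized CPM uses the library total times the factor, and FPKM also divides by the deposited summed exon length. The steps were tested on simulated data.

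Groups came from the sample labels. The number in a label was taken as the mouse. Deviations from group means correlated by 0.055 to 0.214 over 15 same-mouse pairs, over 0.1 in 11. Other columns of the table hold gene positions. Further libraries of these mice, named in the header with medium of HC11/R1 cells, are not analysed here.

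The members, lists and tests were chosen with earlier results of these data known. Members were named with values in every library where called between genotypes or in an interaction, or called with a log2 change of at least 1. Neighbouring genes and regulators were named where called with at least 1. Alternatives were TMM, no low-count filter, filterByExpr, DESeq2 1.42.0, the likelihood ratio test, a threshold of 0.05, only the groups compared, the mouse as a random effect (limma 3.58.1 voom) or as a block, and leaving out each mouse.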

Additional observations from a re-analysis of the deposited data

Results flagged for a closer look

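Among the 36 genes and Slc2a1, the responses that differed between the genotypes by a test of the difference itself (edgeR's quasi-likelihood test, adjusted p under 0.01) were those of Hk2, Pfkp and Slc2a1. The rmGM-CSF response in STAT5cKO minus that in STAT5fl/fl BMDMs was -0.85 on the log2 scale for Hk2, -0.55 for Pfkp and -0.51 for Slc2a1. The step from rmGM-CSF to 4T1 CM differed by 0.80 for Hk2 and 0.67 for Slc2a1, in the other direction. For Hk2 and Slc2a1 both differences rest in part on the same rmGM-CSF libraries, in which the STAT5cKO level was the lower. For Slc2a1 the STAT5cKO libraries were also the higher with 4T1 CM. The rmGM-CSF responses of Hk2, Pfkp and Slc2a1 were all smaller in STAT5cKO than in STAT5fl/fl BMDMs. Of the 44 neighbouring genes tested, 2 were called by the same test for the rmGM-CSF response, both lower in STAT5cKO (3.11% of all genes). The number was 0 for the 4T1 CM response (1.27%) and 1 for the step (1.47%). For the rmGM-CSF response, DESeq2 and the likelihood ratio test called Galm beside Slc2a1. For the 4T1 CM response each of these called 1 gene, Pdp1, and for the step each called Slc2a1. No explanation of these differences was tested.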

How the results depend on the processing

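Of 105 recomputed counts of called genes that kept all mice, 95 stayed within 1.5 times the reported one. With a threshold of 0.05, the count went from 7 to 13 for rmGM-CSF against DMEM in STAT5fl/fl, from 3 to 5 between genotypes with 4T1 CM, from 0 to 1 for the difference in the 4T1 CM response and from 1 to 2 for that in the step from rmGM-CSF to 4T1 CM. The difference in the 4T1 CM response gave 1 gene with no low-count filter, DESeq2, the likelihood ratio test and the mouse as a block, and the difference in the step gave 2 with DESeq2 and the block. The block changed 5 of 175 gene values (1 call lost, 4 gained), all given above. The cause was not tested.

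Leaving out 1 mouse moved the counts over 3 to 8 (rmGM-CSF), 11 to 22 (4T1 CM) and 8 to 13 (4T1 CM against rmGM-CSF) in STAT5fl/fl, and over 5 to 9, 14 to 18 and 10 to 13 in STAT5cKO. Between the genotypes they ran over 0 to 3 (DMEM), 3 to 5 (rmGM-CSF) and 2 to 4 (4T1 CM), and for the differences in response over 1 to 2 (rmGM-CSF), 0 to 0 (4T1 CM) and 0 to 1 (the step). Without 1 STAT5fl/fl mouse the remaining one is assumed to vary like the other groups. Of the 45 calls of the 7 named members, 34 were kept under every alternative, as were 19 of the 52 calls of other members.

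Signs changed among uncalled values near 0 when 1 mouse was left out. Slc2a3 ran over -0.002 to 0.085 (STAT5cKO, 4T1 CM against DMEM), -0.006 to 0.193 (STAT5fl/fl, 4T1 CM against rmGM-CSF) and -0.041 to 0.167 (the step). Hk2 ran over -0.072 to 0.056 (STAT5cKO, rmGM-CSF), -0.097 to 0.162 (between genotypes, 4T1 CM) and -0.177 to 0.085 (4T1 CM response). In the step Slc16a3 ran over -0.142 to 0.069 and Pfkfb3 over -0.152 to 0.043, and in the rmGM-CSF response Pfkfb4 ran over -0.02 to 0.065.

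With 2 STAT5fl/fl mice and no statement that cultures were repeated, p-values measure the spread between these mice. Pfkfb1 and other members with few counts carry wide errors, and levels of genes that share sequence with other genes are uncertain.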
